A study of Mus musculus with 8 samples.

Results

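The growth genes of regrowing axons were followed in injured mouse spinal cord with 10 genes, the transcription factor genes Atf3, Stat3, Klf6, Klf7 and Sox11, and Gap43, Basp1, Tubb2b, Stmn4 and Sprr1a, which encode proteins of the growth cone, the cytoskeleton and the cell periphery. They were found by symbol among the 54532 genes of the deposited table, and all 10 were present. RNA was sequenced from spinal cord 7 days after spinal cord injury, in 4 samples labelled Tia1Nestin-CKO (called CKO here) and 4 labelled Tia1f/f (called control here). CKO stands for a conditional knockout of Tia1, the gene of an RNA-binding protein of stress granules, with Nestin named as its driver. Nestin is an intermediate filament gene that is active in the precursors of neurons and glia. Both groups were injured, and by its name the control genotype carries the floxed allele alone. The sources used here do not give age, sex, strain, the site and type of the injury or whether the deletion was induced in the adult. Immune, vascular and fibroblast cells of the cord lie outside the neural lineage, and whether they kept an intact Tia1 is not given. No label says that each sample came from a separate mouse, so p-values measure the spread between samples, which may in part be technical.

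Adult neurons of the peripheral nervous system answer an axon injury with a growth programme. Its transcription factors, among them ATF3, STAT3, SOX11 and the Kruppel-like factors KLF6 and KLF7, are known to raise genes whose products rebuild the axon, such as the growth cone proteins GAP-43 and BASP1. Neurons of the central nervous system mount this programme weakly. Several of the genes also act outside neurons, Stat3 in reactive astrocytes, Atf3 and Klf6 in stressed cells of many types, and Sprr1a in stratified epithelia.

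Deposited read counts summed to 16189372 to 17802884 per CKO library and to 14752733 to 17530787 per control library. The library labelled control 1 stood apart on the first principal component of log2 CPM (read counts scaled to a common normalized library size), at 94.97 against -21.51 to -5.73 in the other 7 libraries. On the second component CKO 4 (-38.14) and control 3 (-38.73) stood away from the rest. Control 1 also had the smallest summed count and the fewest genes with counts, 18884 against 22434 to 23414 in the other 7 libraries. Why control 1 stood apart was not tested. Markers of neurons (14 of 14), astrocytes (8 of 8) and mature oligodendrocytes (7 of 7) had counts in all 8 libraries. Tia1 averaged 26.9 ± 4.01 CPM in CKO and 32.9 ± 7.21 CPM in control (SD, n = 4 each), with overlapping groups and an exact two-sided permutation p of 0.20. The most Tia1 in a CKO library was 32.1 CPM, in CKO 4, and the least in a control library was 24.4 CPM, in control 2, so directions below rest on the labels.

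Promoter sequences were found for 7 of the 10 genes. Those of Sprr1a and Atf3 are shown because both genes were highest in the library labelled CKO 2 and because the windows differ in kind. Sox11 was also highest in CKO 2, and its window is not printed. Each runs from 250 bases before to 50 bases after a RefSeq transcription start on GRCm38.p6, on the minus strand, and is printed 5′ to 3′ with every match to a searched motif in capitals. The Sprr1a window lies at chr3:92485832-92486131. That of Atf3 lies at chr1:191183284-191183583, within the listed span of the gene, whose model begins further upstream.
Sprr1a: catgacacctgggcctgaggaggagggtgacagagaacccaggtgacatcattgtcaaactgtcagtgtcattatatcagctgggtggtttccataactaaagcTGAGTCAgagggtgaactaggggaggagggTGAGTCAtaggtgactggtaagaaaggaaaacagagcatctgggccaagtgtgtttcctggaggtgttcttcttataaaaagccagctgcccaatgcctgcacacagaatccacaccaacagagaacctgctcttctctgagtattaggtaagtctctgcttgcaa
Atf3: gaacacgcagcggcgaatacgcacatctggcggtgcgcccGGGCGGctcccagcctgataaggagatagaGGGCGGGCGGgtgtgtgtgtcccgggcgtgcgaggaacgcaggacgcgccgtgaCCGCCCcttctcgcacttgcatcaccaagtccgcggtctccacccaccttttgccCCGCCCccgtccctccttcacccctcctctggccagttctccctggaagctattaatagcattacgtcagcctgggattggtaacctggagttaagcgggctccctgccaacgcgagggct

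The capitals in the Sprr1a window are 2 copies of the AP-1 letters TGANTCA, read as TGAGTCA, which begin 146 and 116 bases before the start. These letters occur in 7.81% of all 32851 RefSeq windows, and of the 7 windows of the genes studied only that of Sprr1a held them. The capitals in the Atf3 window are 5 copies of the GC box GGGCGG, which SP and Kruppel-like factors are known to bind, on either strand and with 2 copies overlapping. A GC box was found in 6 of the 7 windows, all but that of Sprr1a, against 35.7% of all windows. The CACCC box CCACACCC (3.56% of all windows) was found in the Basp1 window only. The cAMP response element TGACGTCA (1.79% of all windows) and the STAT letters TTCNNNGAA (8.30%) were found in 0 of the 7 windows. All 5 motifs were searched on both strands, and a match describes the letters of a window, not binding. In base composition, the Sprr1a window had 48.7% G and C and 0 CpG pairs, against 58.3% to 78.0% and 15 to 38 CpG pairs in the other 6. The medians over all windows were 52.7% and 7 CpG pairs, so the shares of GC boxes above are not matched for base composition.

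Between CKO and control, no difference was detected for any of the 10 genes. All 10 passed the filter on low counts, and 0 of 10 had an adjusted p under 0.05 by edgeR's quasi-likelihood test, beside 0% of all 16537 genes tested. None reached an unadjusted p under 0.05, which 1.42% of all genes did (0.496% higher and 0.919% lower in CKO), and none had groups free of overlap, which 1.19% of all genes had. DESeq2 and limma-voom also called 0 of the 10. Estimates of the log2 fold change were above 0 for 7 of the 10 genes, against 48.1% of all genes, and its median was 0.05, against -0.01 over all genes. All 5 genes of the growth cone, the cytoskeleton and the periphery had a log2 fold change above 0 (median 0.13), and 2 of the 5 transcription factor genes did (median -0.02). Because cord tissue was measured in bulk, more cells of a type and more RNA per cell cannot be told apart in these values.

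**Figure D1:**
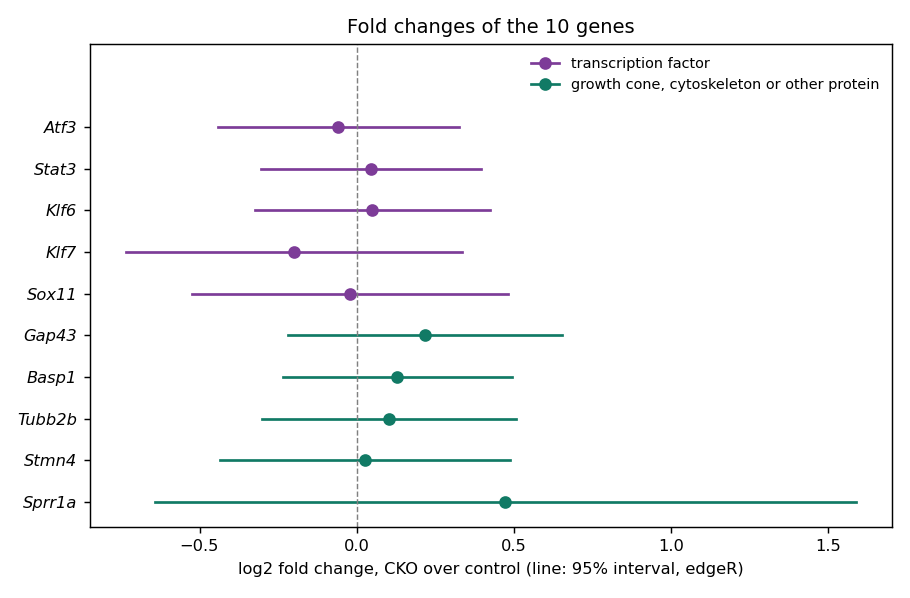
Log2 fold change of each of the 10 genes, CKO over control (x axis), with its 95% interval from edgeR (line), and the genes down the y axis with transcription factors on top. Every interval includes 0, and that of Sprr1a, from -0.64 to 1.59, is the widest.

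Atf3 (ENSMUSG00000026628, chromosome 1, 191170296 to 191218039, minus strand, GRCm38) encodes a stress-induced transcription factor that marks neurons with a cut axon. It had 69.2, 98.7, 66.6 and 65.1 CPM in CKO libraries 1 to 4, against 86.9, 62.5, 82.95 and 79.8 CPM in control libraries 1 to 4. CKO 2 was the highest of the 8 libraries and control 2 the lowest, while the other 3 CKO libraries lay between control 2 and the remaining controls. For Atf3 the estimate was -0.06 on the log2 scale (SE 0.17, 95% interval -0.44 to 0.32; edgeR adjusted p = 1.00). Without CKO 2 it was -0.22, with an unadjusted edgeR p of 0.209.

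Stat3 (ENSMUSG00000004040, chromosome 11, 100885098 to 100939540, minus strand) encodes the transcription factor that carries signals of interleukin-6 type cytokines to the nucleus. Its level was 115.7, 115.9, 144.5 and 130.2 CPM in CKO libraries 1 to 4, against 142.6, 95.8, 135.7 and 116.5 CPM in control libraries 1 to 4. The CKO range lay almost wholly inside the control range. Its log2 fold change of 0.05 had the smallest standard error of the 10 genes (SE 0.16), and its 95% interval spanned folds from 0.809 to 1.32.

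Klf6 (ENSMUSG00000000078, chromosome 13, 5861482 to 5870394, plus strand) and Klf7 (ENSMUSG00000025959, chromosome 1, 64029447 to 64122282, minus strand) encode related zinc finger factors that promote axon growth. Klf6 had 91.7, 107.8, 86.2 and 110.5 CPM in CKO libraries 1 to 4, against 101.4, 73.1, 118.3 and 90.1 CPM in control libraries 1 to 4. Both the highest and the lowest value of Klf6 belonged to control, and its log2 fold change was 0.05 (SE 0.17, 95% interval -0.32 to 0.42). Klf7 was scarcer, at 10.8, 8.66, 11.1 and 11.5 CPM in CKO libraries 1 to 4, against 18.4, 10.1, 11.1 and 8.79 CPM in control libraries 1 to 4. Control 1, the library that stands apart, had 265 counts of Klf7, against 135 to 204 in the other 7. For Klf7 the log2 fold change came to -0.20 (SE 0.24, 95% interval -0.73 to 0.34) with all libraries and 0.075 without control 1. Of the 100-base windows of the longest Klf7 transcript, 39.8% also occur in Gm26649, a noncoding RNA gene listed on the other strand, and Gm26649 had 0 counts in every library. Strand use was not stated, so whether reads of this stretch were counted for Klf7 is not known, and its level may be too low.

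Sox11 (ENSMUSG00000063632, chromosome 12, 27334264 to 27342574, minus strand) encodes a factor of developing and regrowing neurons. It had 8.38, 12.3, 7.47 and 8.17 CPM in CKO libraries 1 to 4, against 11.9, 9.15, 7.21 and 8.57 CPM in control libraries 1 to 4. One library of each group, CKO 2 and control 1, stood above the others, and the raw counts were 124 to 191 in CKO and 130 to 171 in control. Sox11 had an estimated log2 fold change of -0.02 (SE 0.23, 95% interval -0.52 to 0.48). Its relative Sox4 averaged 31.4 ± 3.39 CPM in CKO and 27.4 ± 5.65 CPM in control (SD, n = 4 each), with a log2 fold change of 0.20 (SE 0.17) that did not pass (edgeR adjusted p = 1.00).

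**Figure D2:**
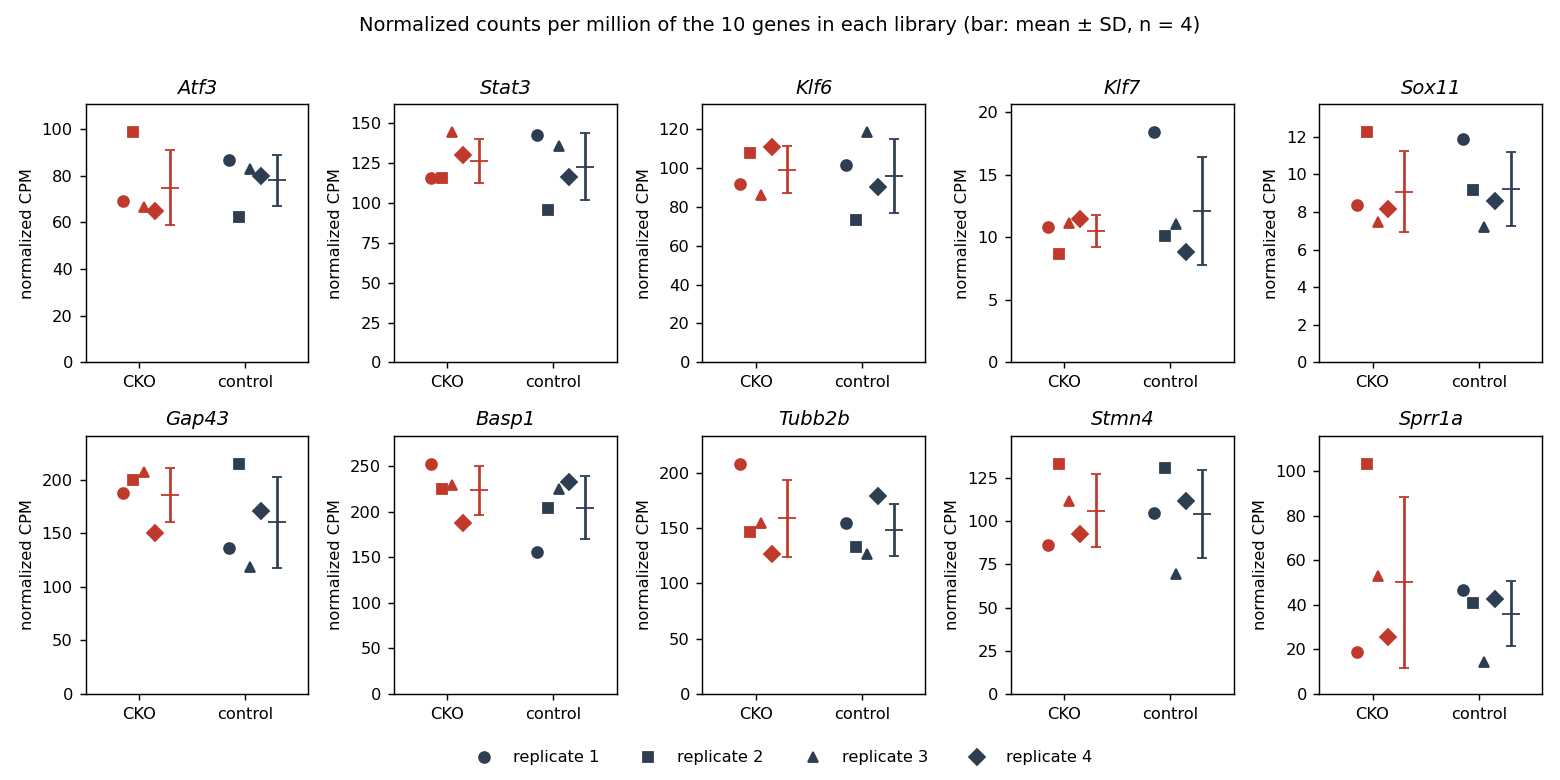
Normalized CPM (y axis) of each of the 10 genes in the 4 CKO libraries (red, left) and the 4 control libraries (dark blue, right), with a marker shape per replicate number and the mean ± SD beside the points. The groups overlap in every panel, and the spread is widest for Sprr1a, with 103.4 CPM in CKO 2.

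Gap43 (ENSMUSG00000047261, chromosome 16, 42248442 to 42340651, minus strand) encodes the classic protein of growth cones. It had 187.3, 199.3, 207.1 and 149.9 CPM in CKO libraries 1 to 4, against 136.0, 214.9, 118.6 and 170.4 CPM in control libraries 1 to 4. Only CKO 4 was below the control mean of 159.996 CPM, but control 2 was above every CKO library. Gap43 had a log2 fold change of 0.22 (SE 0.20, 95% interval -0.22 to 0.65) and the smallest unadjusted p among the 10 genes (0.298), with edgeR adjusted p = 1.00. Without control 2 the log2 fold change was 0.39 (unadjusted edgeR p of 0.054), and without control 3 it was 0.10. Without both control 2 and CKO 4 it was 0.48, with an unadjusted edgeR p of 0.027 and an adjusted p of 0.988. As these are the libraries of most Gap43 among controls and least among CKO, their omission must enlarge the difference.

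Basp1 (ENSMUSG00000045763, chromosome 15, 25363277 to 25413764, minus strand) encodes a membrane-bound protein that works beside GAP-43 at the growth cone. Its level was 252.9, 224.8, 229.3 and 187.5 CPM in CKO libraries 1 to 4, against 155.9, 203.7, 225.2 and 233.2 CPM in control libraries 1 to 4. CKO 1 was highest and control 1 lowest. Its log2 fold change of 0.13 (SE 0.16, 95% interval -0.23 to 0.49) became 0.02 without control 1.

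Tubb2b (ENSMUSG00000045136, chromosome 13, 34126748 to 34130466, minus strand) encodes a beta-tubulin of growing axons. It had 208.6, 146.9, 154.3 and 126.4 CPM in CKO libraries 1 to 4, against 154.7, 132.7, 126.5 and 178.8 CPM in control libraries 1 to 4. CKO 1 was highest by a wide margin, and the log2 fold change was 0.10 (SE 0.18) with it and -0.05 without it. Of the 100-base windows of its longest transcript, 27.7% also occur in Tubb2a or its pseudogene Tubb2a-ps2, so reads could be split between the copies. Tubb2a averaged 155.8 ± 22.8 CPM in CKO and 152.8 ± 27.0 CPM in control (SD, n = 4 each). The sum of Tubb2b and Tubb2a was 314.9 ± 56.3 CPM in CKO and 300.99 ± 47.3 CPM in control, a difference within the spread of the libraries.

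Stmn4 (ENSMUSG00000022044, chromosome 14, 66344296 to 66361680, plus strand) encodes a stathmin, a family of proteins that bind tubulin and tune microtubule growth. It had 86.3, 133.4, 111.8 and 92.7 CPM in CKO libraries 1 to 4, against 104.9, 130.9, 69.3 and 111.5 CPM in control libraries 1 to 4. The groups lay over each other, with a log2 fold change of 0.03 (SE 0.21, 95% interval -0.44 to 0.49). Of its relatives, Stmn1 had a log2 fold change of 0.17 (SE 0.23), Stmn2 of -0.10 (SE 0.24) and Stmn3 of -0.44 (SE 0.33), and none of the 3 passed (edgeR adjusted p = 1.00 for each).

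Sprr1a (ENSMUSG00000050359, chromosome 3, 92483952 to 92485895, minus strand) encodes a small proline-rich protein of the epithelial cell envelope that injured neurons also make and that promotes neurite growth. It was the most variable of the 10 genes, at 18.8, 103.4, 52.7 and 25.5 CPM in CKO libraries 1 to 4, against 46.5, 40.8, 14.3 and 42.8 CPM in control libraries 1 to 4. CKO 2 and CKO 3 were above all controls, CKO 1 and CKO 4 were below 3 of the 4 controls, and the highest library exceeded the lowest 7.22-fold, against 1.51-fold to 2.13-fold for the other 9 genes. The SD of its log2 CPM over the 8 libraries, 0.90, was larger than that of 99.9% of the 1000 tested genes nearest to it in mean level, while those of the other 9 genes were larger than 34.1% to 72.9%. Its log2 fold change of 0.47 (SE 0.51, 95% interval -0.64 to 1.59; edgeR adjusted p = 1.00) became -0.16 without CKO 2.

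Markers of other cells that make Sprr1a or that enter the cord were read beside it. Its relative Sprr1b had 0 to 2 counts per library, and the epithelial keratins Krt5 and Krt14 were at or near 0, at 0 to 0.39 CPM in CKO and 0 to 0.70 CPM in control. The whole list of 8 keratinocyte markers summed to 12.1 to 16.4 CPM in CKO and to 10.5 to 19.9 CPM in control, and 4 of the 8 had counts in all libraries. Neutrophil markers (8 of 8 with counts in all libraries) summed to 693, 1919, 539 and 546 CPM in CKO libraries 1 to 4. In control libraries 1 to 4 they summed to 747, 658, 595 and 263 CPM. All 8 neutrophil markers had a log2 fold change above 0 (median 0.70), with 0 of 8 called. CKO 2 had both the most Sprr1a and the highest neutrophil sum, and CKO 3, the next highest in Sprr1a, had the lowest neutrophil sum among CKO libraries. Markers of dorsal root ganglion neurons summed to 36.2 to 56.2 CPM in CKO and to 37.1 to 69.4 CPM in control, with 4 of 8 having counts in all libraries. Scn10a, the sodium channel of pain-sensing ganglion neurons, had 1.29 CPM in CKO 1 and 3.00 CPM in control 3, the libraries of least Sprr1a in each group, and 0 to 0.06 CPM in the other 6. It was chosen after its values were seen. In all, 5 of the 8 markers were highest in these 2 libraries, whereas Calca, P2rx3 and Tac1 were not, and the summed list was highest in control 1. The part of these cells in the level of Sprr1a was not tested.

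Across the libraries, the levels of the 5 genes of the growth cone, the cytoskeleton and the periphery and of the 5 transcription factor genes are given side by side, with no test of a difference between them. For the growth cone group, the mean of each gene's log2 CPM minus its own mean was -0.07, 0.43, 0.22 and -0.26 log2 units in CKO libraries 1 to 4, against -0.07, 0.12, -0.52 and 0.15 in control libraries 1 to 4. Sprr1a, the gene of largest spread, weighed on these means. Without it, an omission made with the values in view, the other 4 genes stood at 0.15, 0.16, 0.14 and -0.19 log2 units in CKO libraries, against -0.18, 0.11, -0.31 and 0.12 in control libraries. The mean of the transcription factors was -0.08, 0.11, -0.07 and 0.00 log2 units in CKO libraries, against 0.32, -0.23, 0.05 and -0.10 in control libraries. Control 2 was thus above its mean for the growth cone group and lowest for the transcription factors, and control 3 was lowest for the growth cone group, with or without Sprr1a. The nearest pairs of members, by the root mean square difference of centred log2 CPM over the 8 libraries, were Klf6 and Stat3 (0.18), Atf3 and Klf6 (0.20), and Gap43 and Stmn4 (0.21).

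**Figure D3:**
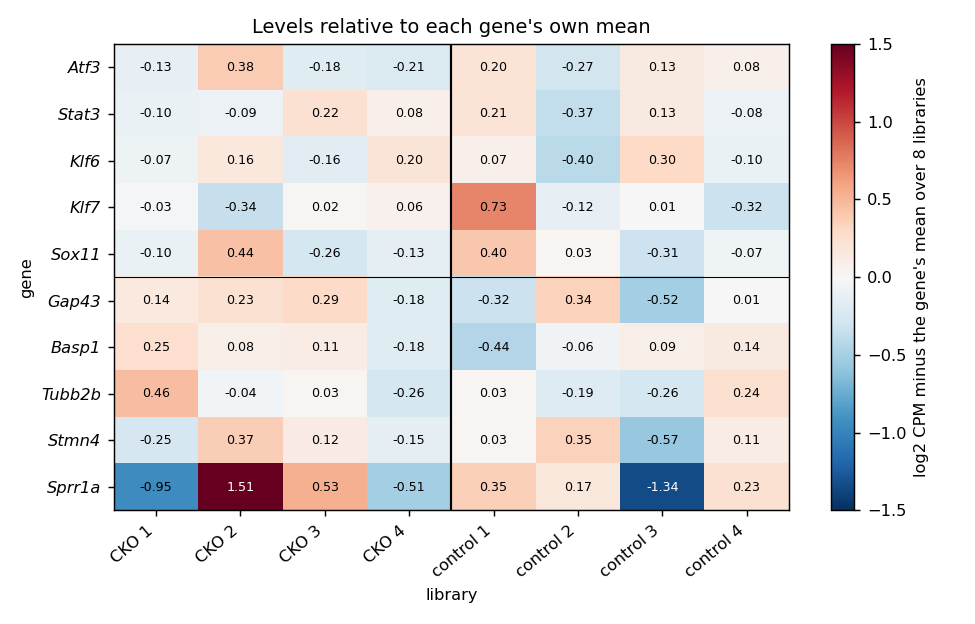
Log2 CPM of each gene (y axis) minus the gene's own mean over the 8 libraries, by library (x axis, CKO left of the line and control right), in colour and in figures. Sprr1a runs from -1.34 in control 3 to 1.51 in CKO 2, and Klf7 stands at 0.73 in control 1.

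The 14 neuronal markers summed to 1731, 1766, 2016 and 1522 CPM in CKO libraries 1 to 4, against 2215, 3434, 1347 and 1814 CPM in control libraries 1 to 4. The library of most neuronal marker RNA, control 2, was also that of most Gap43, and the library of least, control 3, had the least Gap43, Stmn4 and Sprr1a. Among CKO libraries, CKO 3 had the most of both neuronal marker RNA and Gap43, and CKO 4 the least of both. The marker sum of control 1 was above that of every CKO library. Its Gap43 (136.0 CPM) was below that of each, and its Basp1 (155.9 CPM) was the lowest of all. All 14 markers had a log2 fold change below 0 (median -0.34), with 0 of 14 called. Control 2 was left out as well, after its values were seen. Summed over the 14, the markers averaged 1759 ± 203 CPM in CKO (SD, n = 4), against 2202 ± 894 CPM in control (n = 4) and 1792 ± 434 CPM in control without control 2 (n = 3). Without control 2, Rbfox3, Nefm, Nefh, Slc32a1 and Uchl1, 5 of the 14, had the higher mean in CKO. The signs of Stmn4, Sprr1a and Tubb2b rested on single libraries too. Without CKO 2, Stmn4 was at -0.10 and Sprr1a at -0.16, and without CKO 1, Tubb2b was at -0.05. Gap43 and Basp1 stayed above 0 whichever single library was left out. Of the 6 markers of immature neurons, 5 were tested and 2 were above 0 (median -0.27). Summed, these 6 markers ran from 295 to 417 CPM in CKO and from 232 to 397 CPM in control. The part of neuron content in the members' values was not tested.

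Per unit of gene length, the 10 genes spanned a wide range of levels. By the authors' FPKM, averaged over 8 libraries, Gap43 stood at 112.5 ± 22.9 and Basp1 at 105.7 ± 15.3 (SD, n = 8), ranks 418 and 459 among the 54532 genes listed. Tubb2b followed at 66.3 ± 12.1 FPKM, Stmn4 at 54.4 ± 11.2 FPKM, Sprr1a at 52.9 ± 34.4 FPKM and Atf3 at 35.2 ± 5.79 FPKM. From Gap43 down to Atf3, each gene's range over the libraries overlapped that of the next. Within single libraries, however, Basp1 was above Tubb2b in 8 of 8, while Gap43 was above Basp1 in 5 of 8, Tubb2b above Stmn4 in 6 of 8, Stmn4 above Sprr1a in 5 of 8 and Sprr1a above Atf3 in 6 of 8. Klf6 at 22.0 ± 3.42 FPKM and Stat3 at 13.0 ± 1.71 FPKM each had a range apart from their neighbours in this order. The range of Klf6, from 16.5 to 27.0 FPKM, still overlapped that of Sprr1a, from 17.8 to 127.2 FPKM. Klf7 at 1.38 ± 0.36 FPKM and Sox11 at 1.09 ± 0.22 FPKM had overlapping ranges, with Klf7 above Sox11 in 7 of 8 libraries, and were below all the rest in every library. Sprr1a held places from 2 to 7 within single libraries, whereas Stat3 was in place 8 in all 8 libraries. This order rests on the listed gene length, which for Stat3 is 9527 bases, against 6042 in its longest transcript. For Stmn4 it is 1916 against 1361 bases. With transcript lengths instead, the order and the gaps between ranges could differ.

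**Figure D4:**
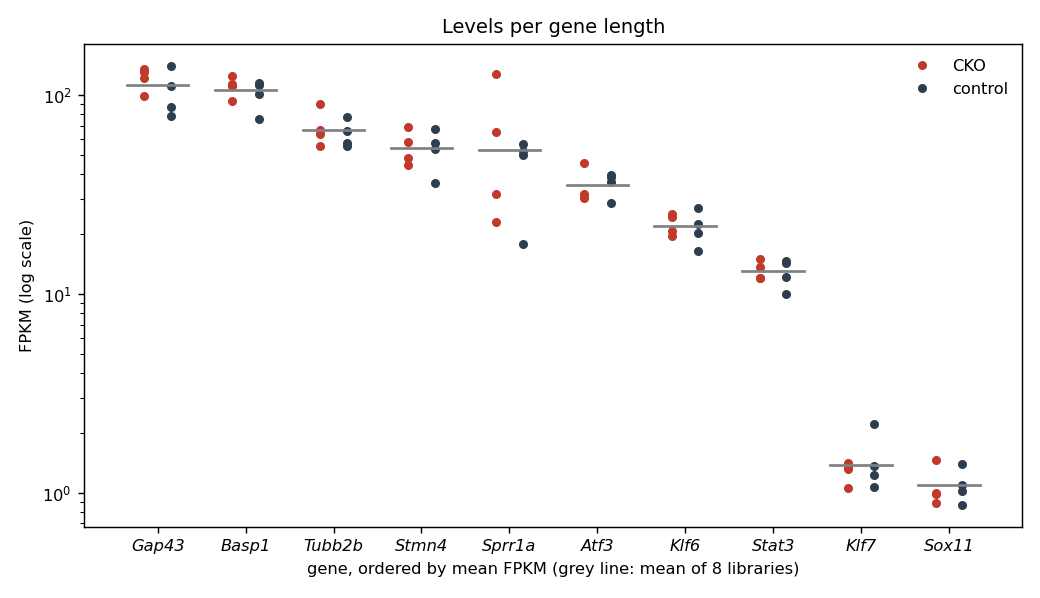
The authors' FPKM (y axis, log scale) of each of the 10 genes in the CKO (red, left) and control (dark blue, right) libraries, ordered by the mean of 8 libraries (grey line). Klf7 and Sox11 lie near 1 FPKM, below the range of every other gene.

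By the same root mean square measure, the genes most like the 3 members of largest spread were sought among 10603 genes of at least 10 CPM. Nearest to Sprr1a were Ecel1 (0.46 log2 units), Tmem163 (0.46) and Chadl (0.52), against a median of 0.88 over all candidates. Ecel1 had 18.1, 45.0, 34.5 and 21.6 CPM in CKO libraries 1 to 4, against 20.4, 35.5, 15.5 and 29.6 CPM in control libraries 1 to 4, highest in CKO 2 and lowest in control 3 as Sprr1a was. Nearest to Klf7 were Gab1 (0.09), Mtmr1 (0.09) and Prkci (0.10), against a median of 0.38, and each was highest in control 1. Nearest to Stmn4 were Dbndd2 (0.12), Srcin1 (0.14) and Scg2 (0.14), against a median of 0.38. All points share the 8 libraries, and a library that stands apart weighs on every such distance.

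Related genes of the same pathways were read from lists that do not contain the 10 genes, and none of their members passed (0% of all genes tested, edgeR). Of 16 tested genes of the JAK-STAT3 pathway 10 had a log2 fold change above 0 (median 0.08), with 0 at an unadjusted p under 0.05. Groups did not overlap for 3 of these 16, all higher in CKO, against 0.701% of all genes. These were the cytokine gene Lif, which was singled out after its values were seen, and 2 genes that STAT3 is known to raise, the kinase gene Pim1 and the NF-kB partner gene Bcl3. Lif had 3.77, 3.02, 3.01 and 3.21 CPM in CKO libraries 1 to 4, against 2.02, 2.73, 2.39 and 1.99 CPM in control libraries 1 to 4, a log2 fold change of 0.51 (SE 0.26). Pim1 averaged 14.4 ± 0.75 CPM in CKO and 10.2 ± 3.41 CPM in control (SD, n = 4 each), with 5.56 CPM in control 1. Bcl3 had 15.4, 14.7, 16.8 and 13.9 CPM in CKO libraries 1 to 4, against 12.7, 8.08, 13.3 and 12.2 CPM in control libraries 1 to 4. The receptor gene Lifr, at 28.5 ± 2.00 CPM in CKO and 35.9 ± 8.36 CPM in control, and the kinase gene Tyk2 (log2 fold change -0.13, SE 0.18) had the smallest p on the lower side.

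Among 14 transcription factor genes of the injury response, 8 had a log2 fold change above 0 (median 0.04) and 0 had an unadjusted p under 0.05. Junb averaged 61.2 ± 10.5 CPM in CKO and 47.8 ± 18.0 CPM in control, Sox4 is given above, and Creb1 (log2 fold change -0.24, SE 0.19) and Fos (-0.21, SE 0.23) had the smallest p on the lower side. Of 12 other Kruppel-like factor genes, which include both promoters and brakes of axon growth, 9 were above 0 (median 0.16), again with 0 at an unadjusted p under 0.05. Klf10 averaged 26.9 ± 4.64 CPM in CKO and 18.5 ± 7.40 CPM in control, and Klf11 had a log2 fold change of 0.21 (SE 0.22), Klf15 one of -0.32 (SE 0.21) and Klf12 one of -0.08 (SE 0.22).

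The list of 25 growth cone and axon cytoskeleton genes had 13 members above 0 and 12 below, with a median log2 fold change of 0.00. Of these 25, 0 had an unadjusted edgeR p under 0.05. Coro1c, of the actin cytoskeleton, had a log2 fold change of 0.18 (SE 0.18), and the thymosin gene Tmsb10 one of 0.50 (SE 0.51). Tmsb10 ran from 263.9 to 365.0 CPM in CKO and from 30.6 to 371.1 CPM in control. Dcx, a microtubule protein of young neurons, averaged 2.79 ± 0.73 CPM in CKO and 4.34 ± 2.30 CPM in control, and Nrn1, which encodes neuritin, had a log2 fold change of -0.36 (SE 0.24). Of 12 genes that act as brakes on axon growth 10 were below 0 (median -0.12) and 2 above 0, against 48.1% of all genes above 0. None of the 12 had an unadjusted edgeR p under 0.05. Rtn4, which encodes the myelin inhibitor Nogo, averaged 591.96 ± 76.3 CPM in CKO and 675.2 ± 149.8 CPM in control. Its receptor gene Rtn4r, with 15 to 69 counts per library, came to -0.56 on the same scale (SE 0.40), and Tsc2 (0.11, SE 0.12) and Rhoa (0.10, SE 0.13) had the smallest p on the higher side.

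Of 26 other regeneration-associated genes 23 were tested, 9 above 0 and 14 below (median -0.06), and 2 of the 23 had an unadjusted p under 0.05 without passing, against 1.42% of all genes. Hspb1, a small heat shock protein gene that injured neurons and astrocytes raise, had 258.0, 276.6, 398.3 and 293.6 CPM in CKO libraries 1 to 4, against 161.5, 191.2, 223.8 and 202.6 CPM in control libraries 1 to 4. Every CKO library was above every control library, as for 0.701% of all genes and for no other of the 23, with a log2 fold change of 0.65 (SE 0.17, edgeR adjusted p = 1.00). Cacna2d1, a calcium channel subunit gene that sensory neurons raise after nerve injury, averaged 16.2 ± 2.94 CPM in CKO and 24.6 ± 9.37 CPM in control, a log2 fold change of -0.61 (SE 0.25, edgeR adjusted p = 1.00). Arg1, which encodes arginase and is also a gene of macrophages, averaged 336 ± 325 CPM in CKO and 148 ± 141 CPM in control, and Plau, the urokinase gene, 74.6 ± 23.2 CPM in CKO and 93.6 ± 15.7 CPM in control. Il6, Cntf, Galr1, Gpr151 and Ankrd1, with 0 to 95 counts per library, were not tested.

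**Figure D5:**
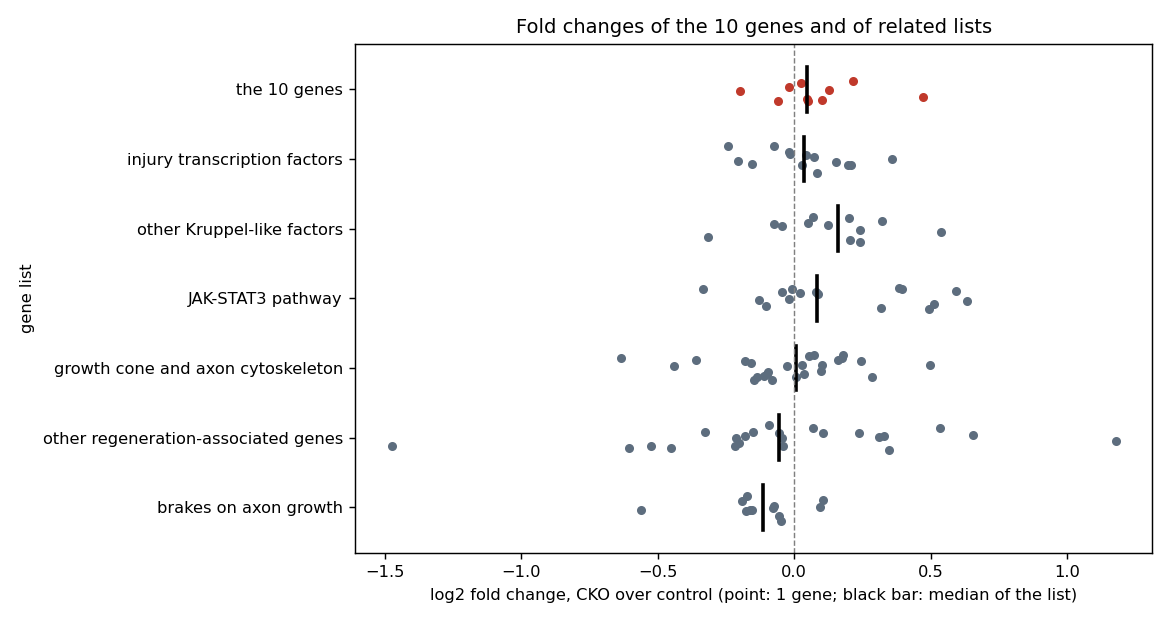
Log2 fold change, CKO over control (x axis), of the 10 genes (red, top) and of the tested genes of each related list (grey, list names on the y axis), with a black bar at each median. The medians lie between -0.12 and 0.16, and no gene shown passed the threshold.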

How the data were processed

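RNA-seq libraries of 4 CKO and 4 control samples were compared. The authors deposited whole-number read counts per gene, and FPKM values that equal each count divided by listed gene length and 1 constant per library (largest relative deviation 5.1e-15, genes over 200 counts). The submitters' processing notes name HISAT2 2.0.5, DESeq2 1.20.0, featureCounts 1.5.0-p3, CASAVA 1.8 and fastp, without roles, and a human build. The gene identifiers are of mouse, and GENCODE M21 (GRCm38) places 98.3% of the 54495 it shares at identical positions, all 10 genes included. Coordinates are therefore on GRCm38. Strand use and the treatment of multiply matching reads were not stated.

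Counts were analysed with edgeR 4.0.16 in R 4.3.3: filterByExpr (minimum count 10, minimum total 15), TMM scaling, and the robust quasi-likelihood F test with genotype as the only term, Benjamini-Hochberg adjusted over 16537 genes at 0.05. CPM were normalized by TMM. The standard error is the log2 fold change divided by the square root of F. Log2 CPM used a prior count of 2. Tia1 was also compared by an exact permutation test over 70 assignments. Alternatives used DESeq2 1.42.0, limma 3.58.1, other filters and scaling, left-out libraries and a replicate block.

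The 10 genes and all lists were chosen with earlier results of these data known. Named list genes are the 2 of smallest p in each direction, and the genes most alike were named for the 3 members of largest spread. Promoters came from RefSeq on GRCm38.p6. Intervals rest on the spread between libraries.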

Additional observations from a re-analysis of the deposited data

Results flagged for a closer look

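Atf3 in CKO libraries was flagged because 1 library lay far from the others. The library labelled CKO 2 had 98.7 CPM, against 65.1 to 69.2 CPM in the other 3 CKO libraries. The gap took up 0.878 of the range of the 4 libraries, above Dixon's 95% critical value for 4 values. Of 22 groups examined this was the only one so marked, where chance marks about 5% of groups. CKO 2 also had the most Sox11, Stmn4 and Sprr1a of the CKO libraries, and neutrophil markers summed there to 1919 CPM. The cause was not tested.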

How the results depend on the processing

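The count of called genes among the 10 stayed at 0 under all 18 alternatives. The count over all genes was 0 in each, leave-one-out fits included, except under the DESeq2 Wald test, which called 1 gene, Saa3. With 1 library, or control 2 and CKO 4 together, left out, the median log2 fold change of the 10 genes, 0.05, ran from -0.05 to 0.10 (lowest without CKO 2) and that of Tia1, -0.29, from -0.51 to -0.16. The -0.51 came without both control 2, the control of least Tia1, and CKO 4, the CKO library of most. That omission must enlarge the difference in Tia1, and single omissions took it no lower than -0.41. Gap43 (0.10 to 0.48) and Basp1 (0.02 to 0.20) stayed above 0 in all 18 alternatives, and the other 8 genes changed sign in at least 1. With 1 library, or control 2 and CKO 4 together, left out, their ranges were -0.22 to 0.0042 for Atf3, -0.12 to 0.17 for Klf6, -0.32 to 0.075 for Klf7, -0.20 to 0.13 for Sox11, -0.16 to 0.757 for Sprr1a, -0.070 to 0.13 for Stat3, -0.12 to 0.22 for Stmn4 and -0.055 to 0.21 for Tubb2b. Without both control 2 and CKO 4, Klf6, Stat3 and Sox11 (0.025) changed sign. Without both control 1 and CKO 2, an omission added with the values in view, Klf7 (0.16), Sprr1a (-0.012) and Stmn4 (-0.099) did, and with no low-count filter Sox11 did (0.0020). The causes were not tested beyond these omissions. With the replicate number as a block, 0 genes were called and the median of the 10 was 0.06. Deviations of same-numbered libraries correlated at -0.33 to 0.05 across genes, and no library correlated best with its own number. With 4 libraries per group and control 1 standing apart, such correlations cannot show whether same-numbered samples were handled together. Klf7 and Sox11, with 124 to 265 counts per library, were measured least precisely by counting error.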
